A study of Mus musculus with 88 samples.

Results

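The effect of losing Mtf2 was examined at 48 h of differentiation of mouse embryonic stem cells (ESCs) toward endoderm, by comparing the Mtf2 null libraries with the wild-type (WT) libraries of the endoderm count table at that time. The members were chosen by their labels alone, as 2 Mtf2 null and 2 WT libraries, which are 4 of the 88 samples of the series. In the wider study, cells lacking Mtf2, Jarid2, or Eed were followed beside WT through embryoid body formation in single cells and in bulk, and WT, Mtf2 null, and Jarid2 null cells were also differentiated as monolayers toward mesoderm or endoderm and sampled undifferentiated and at 5, 24, and 48 h. WT cells were E14 ESCs of 129/Ola origin, and the labels give the strain E14 for every directed sample. The Mtf2 null line is given in the study as Mtf2 GT/GT, and all cells were kept in serum with LIF before differentiation. In the endoderm protocol all genotypes received Activin A, CHIR99021 (which activates the Wnt pathway), and FGF2 at the start, and then Activin A with DM3189, an inhibitor of BMP receptors. Each genotype was represented by 1 line. For bulk RNA sequencing the study's methods name a separate WT line, Pcl1-3 WT, as the matched background of the Mtf2 null cells, whereas the WT libraries here are labelled E14. The methods and the labels thus differ on the WT line, and the genotype and the origin of the line cannot be told apart in this comparison.

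Polycomb repressive complex 2 (PRC2) methylates histone H3 at lysine 27 and keeps developmental genes silent in ESCs. MTF2 is an accessory subunit that defines the PRC2.1 form of the complex and brings it to unmethylated, CG-rich promoters, and JARID2 is an accessory subunit of the alternative form PRC2.2. Definitive endoderm arises in the embryo from the primitive streak under Nodal signaling, which Activin A replaces in culture, whereas extraembryonic endoderm (primitive, visceral, and parietal endoderm) arises earlier and lines the yolk sac. Transcription factors such as SOX17, GATA4, GATA6, FOXA2, and HNF4A act in both kinds of endoderm.

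The 4 libraries held 10087507 to 15037271 estimated counts assigned to genes, within the range of the whole endoderm series. Principal component 1 of the 24 endoderm libraries carried 39% of the variance and placed the Mtf2 null libraries apart from WT and from the libraries labelled Jarid2 null at every time, and component 2, which carried 15%, placed the 24 h and 48 h libraries apart from those at 5 h and before differentiation. The duplicates are described in the study as technical, so p-values measure only the spread between these libraries. Levels are given as CPM, read counts scaled to a common library size, in the order replicate 1, replicate 2.

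The targeted gene was examined first. Mtf2 was measured at 218 and 238 CPM in WT and at 31.1 and 35.0 CPM in Mtf2 null libraries. Both null libraries lay far below both WT libraries, and Mtf2 fell by 2.78 on the log2 scale (SE 0.12, edgeR adjusted p = 2.28e-17). Counts over the whole gene do not show which part of the transcript the remaining reads came from. The level of Mtf2 in null libraries was much the same before differentiation (34.8 and 31.1 CPM), while WT libraries had 448 and 509 CPM. The gap between genotypes therefore narrowed by 1.08 ± 0.17 (SE) on the log2 scale (edgeR adjusted p = 1.83e-05). In the libraries labelled Jarid2 null, a group used for comparison only, Jarid2 had 347 and 377 CPM, against 327 and 307 CPM in WT. Their label was thus not borne out by a lower count of that gene. Counts over the gene do not show whether protein is made, and the study reports checking its Jarid2 null cells by western blot.

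A gene is called here when its edgeR adjusted p is under 0.001 and its log2 fold change is above 1 in size, and "rose" and "fell" describe called genes in Mtf2 null relative to WT. Of 19261 genes tested at 48 h, 1265 rose (6.57% of genes tested) and 831 fell (4.31%), together 10.9%. The median log2 fold change over all genes was -0.02. Where libraries of the genotypes are said not to overlap, this describes their values and is no test. The share of all genes that separate in this way was not counted. For the libraries labelled Jarid2 null, the same comparison with the same WT libraries called 20 genes higher (0.104%) and 19 lower (0.0986%), together 0.202%. Genes were read in groups from lists that follow known roles, and the counts for the endoderm lists come with their members below. Low genes pass the filter on counts through the libraries in which they are high, so these counts over tested members describe the lists and are no test of them.

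Part of the list of definitive endoderm regulators and markers was higher in Mtf2 null than in WT libraries. Of 23 listed genes 19 were tested, of which 11 rose and 2 fell, and the median log2 fold change was 2.60. Sox17, a transcription factor required for definitive endoderm, was measured at 0.173 and 0.377 CPM in WT and at 34.3 and 30.6 CPM in Mtf2 null libraries. It was nearly absent from both WT libraries and present in both null libraries, a log2 fold change of 6.85 ± 0.49 (SE, n = 2 against 2, edgeR adjusted p = 8.00e-11). Foxa2, a pioneer factor of foregut endoderm, went from 0.346 and 0 CPM to 19.8 and 15.6 CPM. Its log2 fold change was 6.54 ± 0.58, and the groups did not overlap. Gata6 was measured at 0.693 and 1.51 CPM in WT and 64.3 and 53.3 CPM in Mtf2 null (5.75 ± 0.24, adjusted p = 4.09e-18). Gata4 was measured at 9.01 and 6.03 CPM in WT and 112 and 92.1 CPM in Mtf2 null (3.76 ± 0.17, adjusted p = 3.28e-17), and for both GATA factors the lowest null library exceeded the highest WT library many times over.

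Further down the list, Hnf4a, a nuclear receptor of visceral endoderm and liver, rose from 0.433 and 0.753 CPM to 19.5 and 15.1 CPM, a log2 fold change of 4.85 ± 0.40. Lhx1, a LIM homeodomain factor of the anterior mesendoderm, had 0 and 0.283 CPM in WT and 5.39 and 5.24 CPM in Mtf2 null libraries, a ratio of 39.2 (95% counting interval 13.2 to 192). It was called with an edgeR adjusted p of 1.58e-06. The receptor tyrosine kinase Kit rose from 7.10 and 2.26 CPM to 32.0 and 29.3 CPM (2.69 ± 0.29), and its 2 WT libraries differed from each other more than its Mtf2 null libraries did. Smaller rises were measured for the tight junction gene Cldn6 (1.90 ± 0.16), the homeodomain factor Hhex, from 4.76 and 4.14 CPM to 13.8 and 12.3 CPM (1.54 ± 0.21), and the repressor Prdm1 (1.03 ± 0.14), which lay close to the fold limit and was not called with upper-quartile scaling (0.91).

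The 2 genes that fell were Otx2 and Trh. Otx2, a homeodomain factor of the epiblast and anterior endoderm, was measured at 82.0 and 55.3 CPM in WT and at 13.0 and 17.7 CPM in Mtf2 null libraries, and fell by 2.16 on the log2 scale (SE 0.17, edgeR adjusted p = 3.01e-11). Trh, which encodes thyrotropin-releasing hormone, was measured at 164 and 98.3 CPM in WT and at 24.6 and 30.2 CPM in Mtf2 null libraries, and fell by 2.26 (SE 0.19). Neither gene overlapped between genotypes.

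Other defining markers of definitive endoderm did not pass the test. The chemokine receptor gene Cxcr4, used to sort definitive endoderm, was measured at 0.26 and 0.471 CPM in WT and at 2.47 and 2.02 CPM in Mtf2 null libraries (log2 fold change 2.60 ± 0.63, edgeR adjusted p = 0.0014). Eomes, the T-box factor at the top of the definitive endoderm program, had 11.3 and 12.1 CPM in WT and 13.9 and 14.8 CPM in Mtf2 null libraries (0.30 ± 0.18, adjusted p = 0.2). Mixl1, Epcam, Foxa3, and Spink1 were not called either, and Epcam missed on the fold limit alone (0.76 ± 0.11, adjusted p = 1.00e-06). The secreted inhibitor Cer1 was at 0 in both WT libraries and at 0.224 and 0 CPM in Mtf2 null libraries, and Gsc, a homeobox gene of the organizer, was under 1 CPM in all 4, so neither was tested. Pou5f1 remained at 698 and 657 CPM in WT. Summed over the core pluripotency list, WT libraries had 3208 and 2976 CPM and Mtf2 null libraries 2935 and 3272 CPM. WT libraries at 48 h thus had few counts for Sox17, Foxa2, Cxcr4, Cer1, Gsc, Gata6, and Lhx1. Cxcr4, Cer1, and Gsc were also low in Mtf2 null libraries. The samples of both genotypes are named here by the protocol and time rather than as definitive endoderm.

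**Figure D1:**
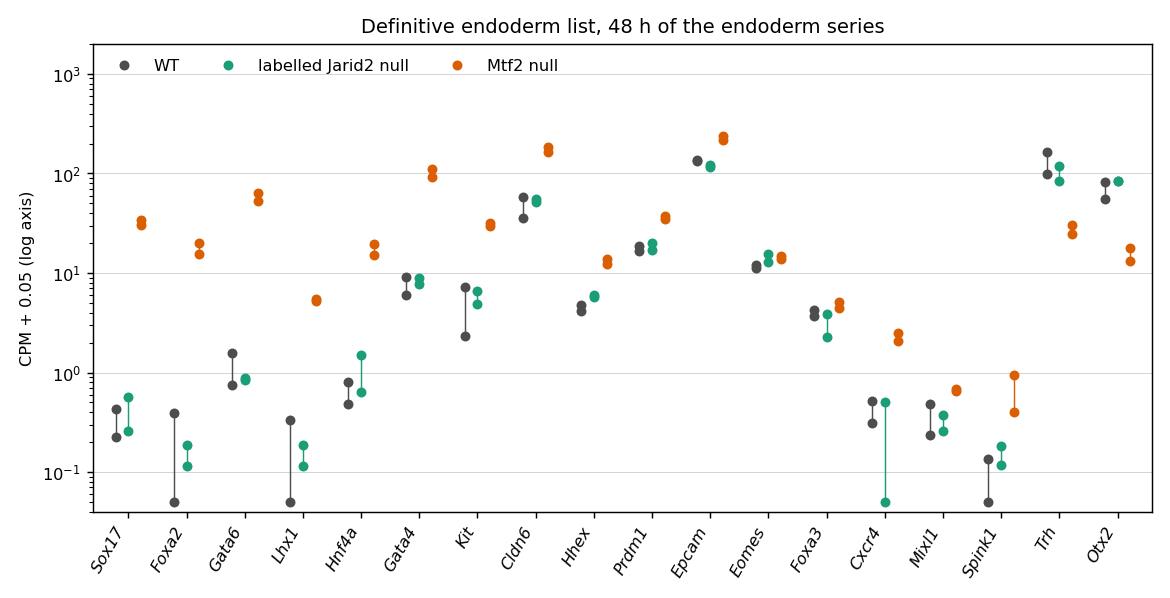
Levels of 18 of the 19 tested genes of the definitive endoderm list at 48 h. Each point is 1 library (CPM + 0.05, log axis), grey for WT, green for libraries labelled Jarid2 null, orange for Mtf2 null, and lines join the 2 libraries of a group. Sox17, Foxa2, and Gata6 are near the bottom of the axis in WT and above 10 CPM in Mtf2 null, while Otx2 and Trh are lower in Mtf2 null.

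Genes of extraembryonic endoderm changed even more widely. Of 28 listed genes 24 were tested, of which 22 rose and 0 fell, with a median log2 fold change of 5.20. Summed over the list, WT libraries had 1242 and 1289 CPM and Mtf2 null libraries 12936 and 11262 CPM. The count of called members was 20 to 23 across the alternatives in which the list was counted again. Markers of another cell type thus moved together with the definitive endoderm list, and their part in the values of that list was not tested. In bulk libraries, more cells of a type and more RNA per cell cannot be told apart. Hnf4a stands on both lists. Members of this list outside the rule for named genes (Cubn, Dab2, Sox7, Apoe, Soat2, Afp, Apoa1, Apoa4, Slc39a5, and Cited1, which is only plotted) were chosen after their values were seen.

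Visceral endoderm takes up protein through an endocytic receptor complex, and 4 of its genes rose. Cubn, which encodes cubilin, was measured at 13.2 and 11.0 CPM in WT and at 1270 and 1240 CPM in Mtf2 null libraries, a log2 fold change of 6.69 ± 0.18 (SE, edgeR adjusted p = 1.28e-22). Amn, which encodes amnionless, the membrane partner of cubilin, rose from 0.693 and 0.283 CPM to 78.2 and 61.0 CPM (7.11 ± 0.29). Lrp2, which encodes megalin, rose from 513 and 596 CPM to 3060 and 2600 CPM (2.35 ± 0.16), and Dab2, the adaptor for their uptake, from 5.54 and 3.48 CPM to 252 and 211 CPM (5.67 ± 0.17). For all 4 genes both null libraries lay above both WT libraries, a description for which the share over all genes was not counted.

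Basement membrane genes, which parietal endoderm makes in quantity for Reichert's membrane, formed a further group. Col4a1 was measured at 45.4 and 35.5 CPM in WT and at 2020 and 1710 CPM in Mtf2 null libraries (5.52 ± 0.17, edgeR adjusted p = 5.13e-21). Col4a2, the neighboring collagen IV gene, rose from 19.7 and 18.8 CPM to 1120 and 958 CPM (5.76 ± 0.17). The laminin genes Lama1 (35.5 and 28.9 CPM to 1460 and 1290 CPM, 5.42 ± 0.16) and Lamb1 (126 and 107 CPM to 959 and 809 CPM, 2.92 ± 0.15) rose with them, as did Sparc (94.9 and 115 CPM to 986 and 860 CPM, 3.13 ± 0.16). Across the list of basement membrane and matrix genes, which shares these 5, 9 of 24 tested rose and 0 fell, with a median of 0.44.

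Ttr, the thyroxine carrier of visceral endoderm and liver, had 0 counts in both WT libraries and 8.01 and 6.84 CPM in Mtf2 null libraries. Against a floor of 3 counts over both WT libraries it was at least 54.7-fold higher. The parathyroid hormone receptor gene Pth1r, a marker of parietal endoderm, rose from 0.346 and 0.377 CPM to 45.3 and 45.9 CPM (6.94 ± 0.37). Pdgfra, the receptor that marks primitive endoderm, rose from 0.52 and 0.283 CPM to 44.4 and 42.9 CPM (6.72 ± 0.28), and the proteoglycan gene Srgn from 1.99 and 2.92 CPM to 273 and 244 CPM (6.72 ± 0.21). Sox7, a transcription factor of parietal endoderm, rose from 2.69 and 2.92 CPM to 38.0 and 39.7 CPM (3.79 ± 0.21), and Apoe from 351 and 331 CPM to 1160 and 1020 CPM (1.68 ± 0.15). The exceptions were Soat2 (1.05 ± 0.28, adjusted p = 0.0033) and the Activin inhibitor Fst (0.15 ± 0.28), which were not called. Afp, Apoa1, Apoa4, and Slc39a5 were too low to be tested, and Afp, a defining marker of visceral endoderm, was at 0 in both WT libraries and at 0.224 and 0.0698 CPM in Mtf2 null libraries.

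**Figure D2:**
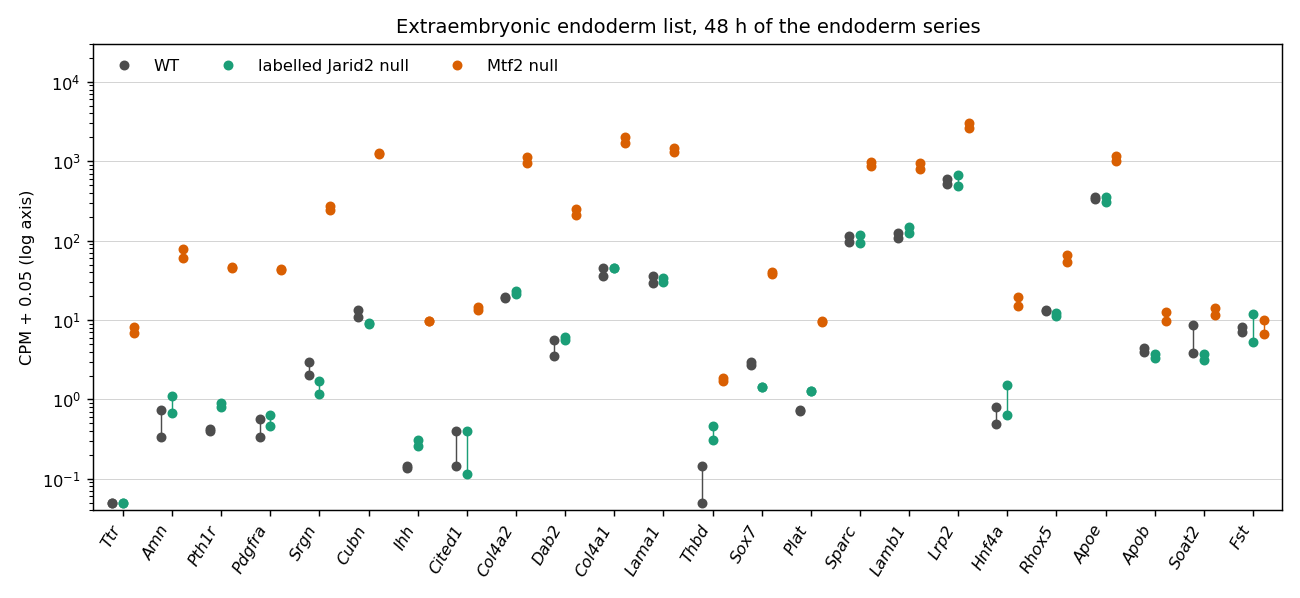
Levels of the 24 tested genes of the extraembryonic endoderm list at 48 h. Each point is 1 library (CPM + 0.05, log axis), grey for WT, green for libraries labelled Jarid2 null, orange for Mtf2 null, and lines join the 2 libraries of a group. The orange points lie above the others for every gene except Fst, and Ttr sits at 0 in all WT and labelled Jarid2 null libraries.

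Because MTF2 is known to bind CG-rich DNA, the 250 bases before the start of 6 of these genes are printed, 3 with a CG-rich stretch and 3 without. The 6 were picked by hand and do not stand for their lists. Sequences are from RefSeq on GRCm38.p6, written 5′ to 3′ on the strand of the gene, and capitals mark each CG and each GATA motif (AGATAA or TGATAA, or their reverse complements TTATCT or TTATCA). Lhx1 (chr11:84525535-84525784, minus strand), Hhex (chr19:37434591-37434840, plus strand), and Olig2 (chr16:91225300-91225549, plus strand), an oligodendrocyte lineage factor among the 12 largest rises given further on, held 26, 32, and 22 CG and no GATA motif.
Lhx1: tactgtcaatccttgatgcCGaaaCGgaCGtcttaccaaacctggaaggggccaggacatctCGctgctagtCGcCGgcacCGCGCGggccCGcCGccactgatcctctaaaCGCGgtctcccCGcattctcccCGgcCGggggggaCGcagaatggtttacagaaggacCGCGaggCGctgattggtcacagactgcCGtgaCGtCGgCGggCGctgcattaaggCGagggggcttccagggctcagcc
Hhex: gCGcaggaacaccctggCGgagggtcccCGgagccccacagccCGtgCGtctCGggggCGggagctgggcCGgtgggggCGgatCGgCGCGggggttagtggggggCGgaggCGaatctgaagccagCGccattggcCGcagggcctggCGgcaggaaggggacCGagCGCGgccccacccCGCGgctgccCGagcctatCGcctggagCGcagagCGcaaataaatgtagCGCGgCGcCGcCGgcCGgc
Olig2: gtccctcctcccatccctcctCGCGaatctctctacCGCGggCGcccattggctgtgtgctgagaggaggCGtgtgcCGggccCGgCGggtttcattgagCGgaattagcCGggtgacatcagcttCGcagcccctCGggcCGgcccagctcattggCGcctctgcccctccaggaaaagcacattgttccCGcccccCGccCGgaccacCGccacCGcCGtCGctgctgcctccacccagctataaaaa
Cubn (chr2:13491877-13492126, minus strand), Dab2 (chr15:6299539-6299788, plus strand), and Hnf4a (chr2:163506607-163506856, plus strand) held 2, 2, and 3 CG, with 1 GATA motif each in Dab2 and Hnf4a.
Cubn: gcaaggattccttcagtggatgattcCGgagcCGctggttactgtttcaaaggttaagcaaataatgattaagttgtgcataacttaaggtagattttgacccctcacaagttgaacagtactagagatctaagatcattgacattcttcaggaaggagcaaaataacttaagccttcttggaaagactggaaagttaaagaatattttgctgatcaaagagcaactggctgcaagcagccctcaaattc
Dab2: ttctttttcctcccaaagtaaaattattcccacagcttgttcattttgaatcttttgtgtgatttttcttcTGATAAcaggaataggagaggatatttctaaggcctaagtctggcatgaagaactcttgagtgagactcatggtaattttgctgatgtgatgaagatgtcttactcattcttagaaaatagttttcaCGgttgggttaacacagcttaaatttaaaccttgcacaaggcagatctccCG
Hnf4a: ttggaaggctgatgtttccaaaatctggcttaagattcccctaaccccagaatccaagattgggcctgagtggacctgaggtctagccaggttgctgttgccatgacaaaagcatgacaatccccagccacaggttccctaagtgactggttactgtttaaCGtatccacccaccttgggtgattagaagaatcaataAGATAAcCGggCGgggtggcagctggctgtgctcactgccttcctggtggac

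Over all 12216 tested genes with a promoter in the RefSeq table, the median number of CG in these 250 bases was 15. It was 14 for 925 matched genes that rose, 10 for 418 that fell, 15 for the 7 matched risers of the definitive endoderm list, and 7 for the 17 matched risers of the extraembryonic list. A GATA motif was present in 9.95% of tested promoters and 17.0% of all 27025 promoters of the table. It was present in 10.1% of those that rose and in 2 of the 17 extraembryonic ones. Those 2 are Dab2 and Hnf4a, both printed above. These are descriptions of the letters in the window and not of sites bound by any factor.

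Whether the Mtf2 null difference was already present before differentiation was asked with undifferentiated libraries of the same series, which share no library with the 48 h comparison. There 1224 genes were called higher (6.35%) and 950 lower (4.93%), together 11.3%. Of the genes that rose at 48 h, 544 were also called higher before differentiation, which is 43.0% of the 48 h genes and 44.4% of the others. Of those that fell, 395 were also called lower, or 47.5% and 41.6%. The difference itself changed between the 2 stages for 571 genes upward (2.96%) and 530 genes downward (2.75%), together 5.72%. Of the 1265 genes that rose at 48 h, 307 had also moved further up from the undifferentiated difference, and 28 had moved back. The 48 h libraries by which these genes were chosen also enter that change. Their choice favors moves upward, so these counts are a description and no test.

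In the extraembryonic endoderm list 17 of 24 tested genes were already called higher in undifferentiated Mtf2 null cells, with a median log2 fold change of 2.30, and 1 was called lower. The difference then grew for 13 genes and shrank for 1. Cubn had 14.6 and 10.0 CPM in undifferentiated WT and 164 and 206 CPM in undifferentiated Mtf2 null libraries, and its log2 difference grew by 2.78 ± 0.23 (edgeR adjusted p = 7.12e-10). Col4a1 had 69.7 and 68.0 CPM against 444 and 582 CPM, and its difference grew by 2.62 ± 0.21. In neither gene was the mean WT level higher at 48 h than before differentiation, and in both the Mtf2 null libraries at 48 h lay above all earlier ones. Within Mtf2 null cells, 20 genes of the list were called higher at 48 h than before differentiation (6.19% of all genes, with 9.15% called in all) and 0 lower. Within WT 3 were called higher (5.39% of all genes) and 3 lower (3.15% of all genes, with 8.54% called in all).

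The definitive endoderm list gave 8 genes higher and 2 lower before differentiation (median 0.77), and the difference grew for 6 and shrank or turned downward for 3. Gata6 was called higher at all times, with 17.1 and 18.4 CPM in undifferentiated Mtf2 null cells against 1.89 and 2.16 CPM in WT. Its difference grew by 2.62 ± 0.37 (edgeR adjusted p = 5.95e-06). Sox17 was also called higher at every time, but the growth of its difference, 3.37 ± 0.85, was not called (adjusted p = 0.0056). Hnf4a and Kit changed order. Hnf4a was not called before differentiation (log2 fold change -1.17, with 3.03 and 1.78 CPM in WT and 0.837 and 1.29 CPM in Mtf2 null), and its difference grew by 6.03 ± 0.59 (adjusted p = 1.13e-08). Kit was called lower before differentiation, with 53 and 40.5 CPM in WT against 16.1 and 16.9 CPM in Mtf2 null, and its difference changed by 4.19 ± 0.37 (adjusted p = 6.19e-07). Otx2 was not called before differentiation (1.7 and 1.5 CPM against 1.17 and 1.71 CPM), and its difference fell by 2.01 (SE 0.43, adjusted p = 8.82e-04).

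Between these stages, at 5 h, 5 genes of the definitive list were called higher (3.68% of all genes) and 2 lower (4.18% of all genes, with 7.86% called in all). At 24 h 7 were higher (3.71% of all genes) and 2 lower (3.13% of all genes, with 6.84% called in all). For the extraembryonic list 13 were higher at 5 h and 16 at 24 h, and 0 lower at either. For Gata4 the Mtf2 null libraries had 27.4 and 35.2 CPM before differentiation, 15.2 and 14.9 CPM at 5 h, 18.6 and 14.9 CPM at 24 h, and 112 and 92.1 CPM at 48 h. The largest step in these libraries lay between 24 and 48 h.

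**Figure D3:**
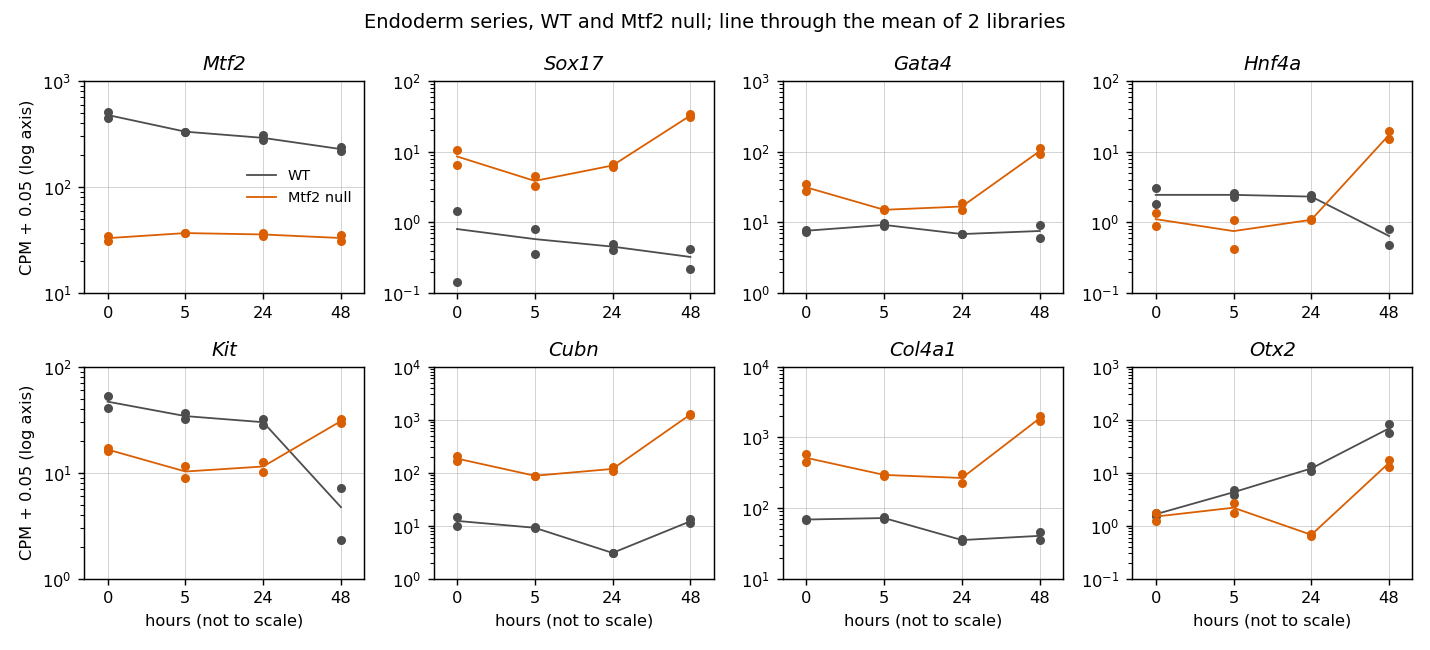
Time course of 8 genes in the endoderm series. Points are libraries (CPM + 0.05, log axis) at 0, 5, 24, and 48 h of differentiation, spaced evenly and not to scale, and lines pass through the mean of the 2 libraries of WT (grey) and Mtf2 null (orange). Mtf2 null levels of Sox17, Gata4, Cubn, and Col4a1 lie above WT at each time and are highest at 48 h, and the lines for Hnf4a and Kit cross between 24 and 48 h.

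The genes with the largest growth of the difference, among those with at least 5 CPM, were Foxf2, Cdh5, Cdh6, Efnb1, Nt5e, and Hnf4a. Cdh5, the endothelial VE-cadherin gene, had 0 counts in WT at 48 h and 9.73 and 11.3 CPM in Mtf2 null, after 0.852 and 0.375 CPM against 2.51 and 2.83 CPM before differentiation (7.98 ± 1.19). Foxf2, a forkhead factor, had 0 counts in WT and 6.81 and 5.58 CPM in Mtf2 null (8.5 ± 1.74). With no WT counts at 48 h, both fitted values depend on the prior count of the fit. Cdh6 (cadherin 6) rose from 0.173 and 0.377 CPM to 38.3 and 35.7 CPM, after 0.663 and 0.843 CPM against 0.92 and 1.37 CPM before differentiation, a growth of 6.45 ± 0.66. Efnb1 (ephrin-B1) gave 6.27 ± 0.48 and Nt5e (an ectonucleotidase) 6.13 ± 0.43. In the other direction stood Ccdc194 (-5.08 ± 0.51), Tmem154 (-4.80 ± 0.39), Fut1 (-4.75 ± 0.58), Adgrd1 (-4.17 ± 0.45), Kctd16 (-4.15 ± 0.73), and Enpp2 (-3.85 ± 0.67). Tmem154 was higher in Mtf2 null cells before differentiation (0.568 and 0.75 CPM against 4.02 and 3.43 CPM) and lower at 48 h (20.2 and 21.8 CPM against 3.22 and 5.17 CPM).

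Pluripotency genes did not follow a single direction. In the naive list all 19 genes were tested, of which 7 rose and 1 fell (median 0.80), whereas 0 of 11 tested core genes were called (median -0.18). Klf4 was measured at 8.49 and 14.0 CPM in WT and at 48.4 and 44.3 CPM in Mtf2 null libraries (2.05 ± 0.20, edgeR adjusted p = 1.25e-08). Tbx3 rose from 20.4 and 30.1 CPM to 96.7 and 87.1 CPM (1.86 ± 0.19), and Dppa3, a naive and germ cell gene, from 0.606 and 0.471 CPM to 29.3 and 28.2 CPM (5.71 ± 0.29). Zfp42, the Rex1 gene, fell by 1.72 (SE 0.12), from 178 and 160 CPM to 51.9 and 51.1 CPM. Esrrb had 128 and 121 CPM in WT and 220 and 213 CPM in Mtf2 null libraries, and Nanog had 108 and 95.8 CPM and 177 and 177 CPM. Neither reached the fold limit (both 0.80). From the undifferentiated stage to 48 h, 14 genes of the naive list were called lower within WT (3.15% of all genes). Within Mtf2 null cells 9 were called lower (2.95% of all genes).

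The formative epiblast list gave 1 gene higher and 3 lower of 14 tested (median -0.54). Besides Otx2, the de novo methyltransferase gene Dnmt3a fell by 1.33 (SE 0.12), from 247 and 206 CPM to 90.5 and 90.1 CPM, and Sall2 fell by 1.21 (SE 0.20). The POU factor gene Pou3f1 had 42.5 and 36.8 CPM in WT and 20.9 and 25.4 CPM in Mtf2 null libraries, which missed the fold limit (-0.78 ± 0.16). Within WT 10 genes of this list were called higher at 48 h than before differentiation (5.39% of all genes), and within Mtf2 null cells 7 (6.19% of all genes). Primitive streak genes showed little at 48 h. Of 17 tested, Cyp26a1, Lhx1, and Nog rose and 0 fell, and 1 rose with a stricter filter on low counts. T (brachyury) was under 0.1 CPM in all 4 libraries at 48 h, although at 24 h it had reached 27 and 22.3 CPM in WT and 3.60 and 3.69 CPM in Mtf2 null libraries.

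Among Nodal and Activin pathway genes 24 were tested, of which 3 rose and 0 fell (median 0.10). Nodal itself had 35.4 and 37.1 CPM in WT and 49.0 and 52.1 CPM in Mtf2 null libraries (0.48 ± 0.12, edgeR adjusted p = 0.0018). The genes that rose were the feedback inhibitor Pmepa1, from 12.0 and 10.5 CPM to 50.1 and 39.7 CPM (2.00 ± 0.17), the convertase Furin, from 28.2 and 26.3 CPM to 110 and 92.2 CPM (1.90 ± 0.13), and the signal transducer Smad3, from 13.9 and 8.10 CPM to 26.0 and 22.4 CPM (1.13 ± 0.17). Without WT replicate 2 the estimate for Smad3 was 0.79, and without WT replicate 1 the list had 5 called genes. The Nodal inhibitors Lefty1 (1.14 ± 0.28, adjusted p = 0.0061) and Lefty2 (-0.89 ± 0.21, adjusted p = 0.0027) were not called. The 3 called GATA factor and cofactor genes of 7 tested were Gata4, Gata6, and the cofactor Zfpm1 (1.64 ± 0.19).

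The BMP and TGF-beta list, in cells whose BMP receptors were inhibited by DM3189, gave 11 genes higher and 1 lower of 30 tested (median 0.61). Bmper, which binds BMPs outside the cell, was measured at 0.173 and 0.0942 CPM in WT and at 24.2 and 27 CPM in Mtf2 null libraries, a ratio of 190 (95% counting interval 64.6 to 922). The antagonist gene Nog rose from 0.346 and 0.659 CPM to 10.8 and 9.21 CPM (4.30 ± 0.46). Among the ligands Bmp2 rose from 0.346 and 0.188 CPM to 3.37 and 3.00 CPM (3.51 ± 0.65), and Bmp4 fell by 2.15 (SE 0.33), from 11.5 and 5.09 CPM to 2.09 and 1.68 CPM. Leaving out a single library removed the call for Bmp2 without WT replicate 1, WT replicate 2, or Mtf2 null replicate 1, and that for Bmp4 without Mtf2 null replicate 2, with estimates of 4.00, 3.16, 3.43, and -2.0 in that order.

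In the Wnt list 7 of 43 tested genes rose and 3 fell (median 0.41). Dkk1, a secreted Wnt antagonist, went from 0.173 and 0.0942 CPM to 21.5 and 20.4 CPM, a ratio of 154 (95% counting interval 52.6 to 751). The ligand genes Wnt11 (0.26 and 0.0942 CPM to 10.8 and 6.70 CPM, 5.52 ± 0.50) and Wnt7b (1.47 and 1.32 CPM to 15.3 and 16.2 CPM, 3.49 ± 0.26) rose, as did the antagonist Sfrp1 (26.9 and 18.9 CPM to 136 and 135 CPM, 2.56 ± 0.16). The receptor genes Fzd3 and Lgr4 fell by 1.98 (SE 0.14) and 1.14 (SE 0.13). In the FGF list 7 of 27 tested genes rose and 4 fell, with 2 lower without Mtf2 null replicate 2, and 5 higher and 2 lower when only the 4 libraries were fitted. Fgfr3 (4.17 ± 0.30) and Fgfr2 (1.92 ± 0.19), which encode receptors, rose, and the feedback inhibitor Spry2 fell by 1.21 (SE 0.12), from 101 and 118 CPM to 46.5 and 48.2 CPM. Ihh, the hedgehog ligand of visceral endoderm, had 0.0866 and 0.0942 CPM in WT and 9.58 and 9.56 CPM in Mtf2 null libraries, a ratio of 106 (95% counting interval 29.1 to 880). In the hedgehog list 3 of 12 tested genes rose and 2 fell (median -0.16). Ptch1 (1.57 ± 0.14) and Gli1 (1.51 ± 0.13) rose beside Ihh, while Boc and Hhip fell. The retinoic acid list gave 4 genes higher and 0 lower of 14 tested, among them Stra6 (4.62 ± 0.61) and Cyp26a1 (5.57 ± 0.70), and the Notch list gave 0 calls of 18.

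Of 14 tested subunits of PRC2, Mtf2 fell and 3 rose, with a median of 0.13. The catalytic subunit gene Ezh2 had 84.9 and 102 CPM in WT and 88.4 and 92.2 CPM in Mtf2 null libraries, and the core subunits Eed (101 and 123 CPM against 85.9 and 96.3 CPM) and Suz12 (173 and 191 CPM against 199 and 199 CPM) were not called. The paralogs of Mtf2, Phf1 (3.64 and 3.39 CPM to 8.68 and 7.54 CPM, 1.2 ± 0.21) and Phf19 (11.5 and 10.6 CPM to 20.2 and 26.4 CPM, 1.07 ± 0.19), rose, as did Epop (69.0 and 61.6 CPM to 163 and 135 CPM, 1.19 ± 0.14), which also belongs to PRC2.1. The calls for Phf1 and Phf19 were lost without WT replicate 2 (1.15 and 1.01), without Mtf2 null replicate 1 for Phf1 (1.10), and without Mtf2 null replicate 2 for Phf19 (0.86). Phf19 also missed the fold limit with upper-quartile scaling (0.95). When only the 4 libraries were fitted, 1 PRC2 gene rose and 1 fell. Of 27 tested PRC1 genes 4 rose, among them Cbx8, Pcgf5, and Phc2, and 0 fell, and 2 of the 4 calls were lost with DESeq2 and without Mtf2 null replicate 1, WT replicate 1, or WT replicate 2.

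Among the remaining lists, keratins and trophoblast genes gave 6 higher and 0 lower of 13 tested. The simple epithelial keratin genes Krt8 (20.0 and 22.0 CPM to 190 and 144 CPM, 2.99 ± 0.15) and Krt18 (21.7 and 22.8 CPM to 182 and 128 CPM, 2.80 ± 0.17) rose, while the trophoblast factor genes Cdx2 and Elf5, looked up after the list was counted, had 0 and 0.0942 CPM in WT with 0.0748 and 0.14 CPM in Mtf2 null, and 3.03 and 2.92 CPM with 3.07 and 3.49 CPM. In the list of epithelial-mesenchymal transition 7 of 20 tested rose and 2 fell. Junction genes such as Dsp (2.77 ± 0.19) rose, the mesenchymal filament gene Vim fell by 2.06 (SE 0.17), from 32.3 and 30.5 CPM to 7.03 and 8.03 CPM, and Snai1, a repressor of E-cadherin, rose (4.43 ± 0.33). In the germline and meiosis list 10 of 24 tested genes fell and 4 rose (median -0.88), with the synaptonemal gene Sycp3 at 14.6 and 22.2 CPM in WT and 2.99 and 2.86 CPM in Mtf2 null, and only 6 fell when just the 4 libraries were fitted. The endothelial and blood list gave 5 higher and 0 lower of 15, including Runx1 (1.21 and 1.13 CPM to 44.8 and 38.5 CPM, 5.14 ± 0.26), while Kdr and Tal1 were not called.

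The lists of Hox genes (10 tested of 39, 3 higher) and other developmental homeobox genes (49 tested of 112, 6 higher and 4 lower) held genes of which many were too low to test. The Hox count was 0 with DESeq2 and without Mtf2 null replicate 1, WT replicate 1, or WT replicate 2, and 1 without Mtf2 null replicate 2. The lower homeobox count was 2 without Mtf2 null replicate 2 or WT replicate 2. Neural ectoderm gave 3 higher and 3 lower of 19, cardiac and lateral mesoderm 2 higher and 1 lower of 10, and paraxial and other mesoderm 1 higher and 1 lower of 12. Among 38 genes of the S and G2/M phases only Plk1 and Aurka rose, both near the fold limit, and with upper-quartile scaling or without WT replicate 2 they were not called and 1 gene of the list was called lower. G1 cyclins and CDK inhibitors gave 2 higher and 1 lower of 12, glycolysis and hypoxia 4 higher and 3 lower of 26, DNA methylation enzymes 2 higher and 1 lower of 9, p53 targets 1 higher and 1 lower of 17, replication-dependent histone genes 2 higher and 2 lower of 68 (4 lower without WT replicate 1), fibroblast and feeder genes 0 higher and 1 lower of 7, and sex chromosome genes 0 higher and 1 lower of 5. Immediate early genes (12 tested) and H3K27 demethylases with MLL methyltransferases (7 tested) gave 0 calls with edgeR, as did the core pluripotency and Notch lists, while over all genes 8761 had an unadjusted p under 0.05.

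**Figure D4:**
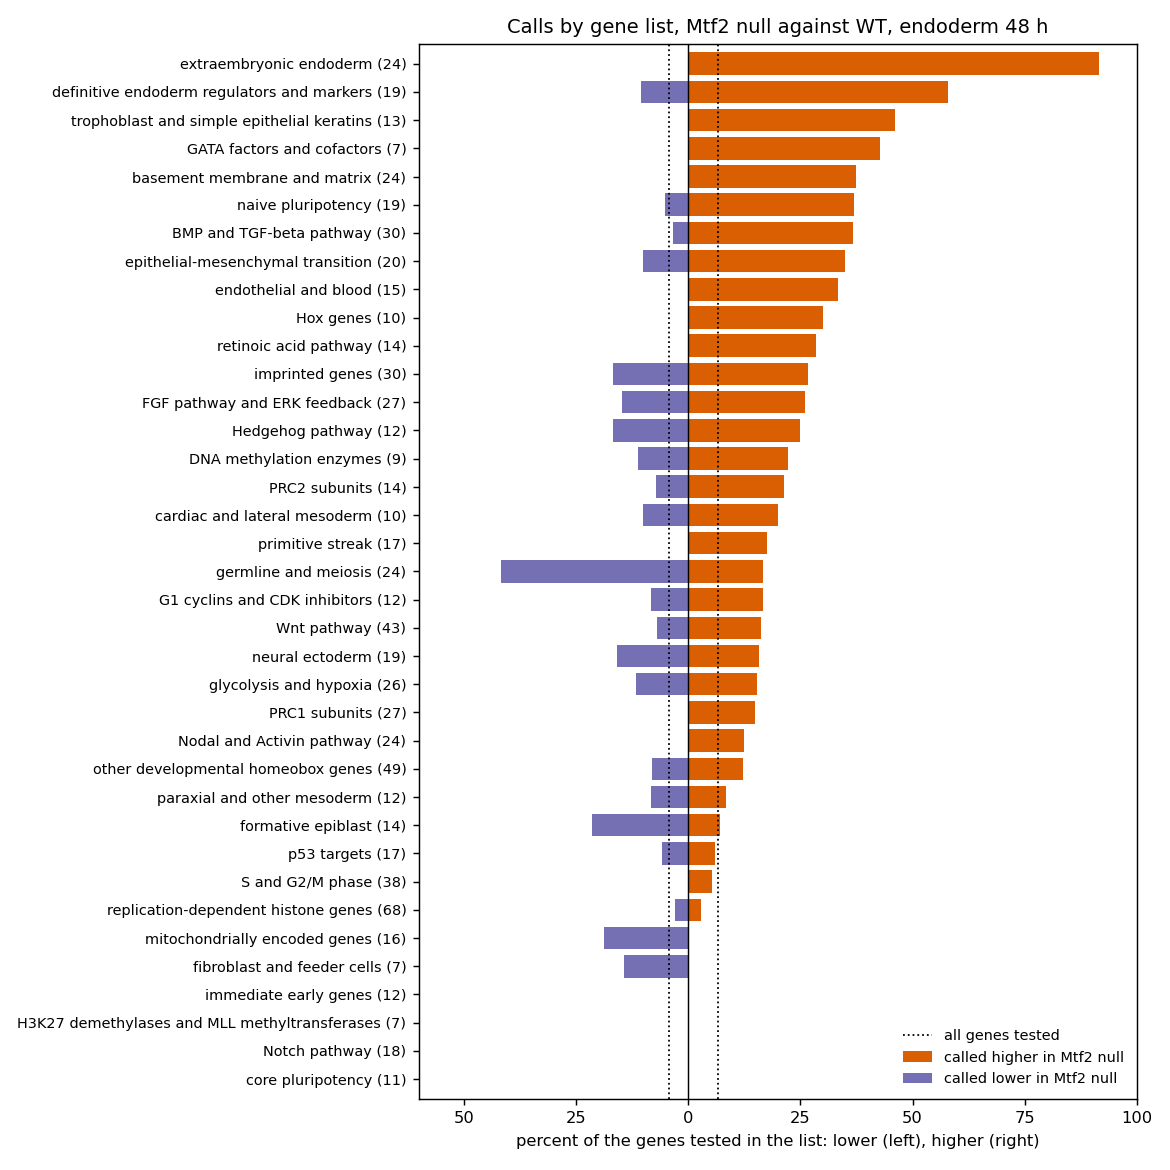
Called genes by list, Mtf2 null against WT at 48 h of the endoderm series, for lists with at least 7 genes tested (number tested in parentheses). Bars give the percent of tested genes called higher (orange, to the right) or lower (violet, to the left), and dotted lines give the percent over all genes tested, 6.57 higher and 4.31 lower. Extraembryonic and definitive endoderm lead on the right, and germline and meiosis on the left.

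Of the 12 genes with the largest rise among those with at least 5 CPM, 8 were already called higher before differentiation. Olig2 had 0 counts in both WT libraries and 22.8 and 22.8 CPM in Mtf2 null libraries, at least 169-fold higher, and its level in Mtf2 null cells was already 16.7 and 18.4 CPM before differentiation. Cdh5, Csf1r (the macrophage colony-stimulating factor receptor, 10.4 and 9.70 CPM), Vnn1 (8.38 and 9.08 CPM), Pla2g12b (7.18 and 8.24 CPM), Ttr, Foxf2, and Slc34a2 (6.14 and 5.10 CPM) likewise had 0 counts in WT, which makes them at least 77.9-, 74.2-, 64.6-, 57.1-, 54.7-, 45.6-, and 41.4-fold higher. The water channel gene Aqp8 (23.9 and 36.8 CPM), Sprr2a2 (29.2 and 25.8 CPM), and Tfec (24.5 and 27.1 CPM) had 1 or 2 counts in WT over both libraries, with ratios of 677 (121 to 26800), 608 (109 to 24100), and 286 (78.9 to 2370). Pga5, a pepsinogen gene, was measured at 1.56 and 1.79 CPM in WT and at 376 and 319 CPM in Mtf2 null libraries (7.69 ± 0.18, edgeR adjusted p = 5.65e-24).

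The same comparison was made in the mesoderm series, whose 48 h libraries are separate and in which cells were taken toward mesoderm. Of the genes that rose in the endoderm series 562 were called higher there too (44.4% of the endoderm genes, 79.5% of the mesoderm genes), and of those that fell 384 were called lower (46.2% and 66.9%). There 6.98% of genes tested were called. In undifferentiated cells of the mesoderm series, where 1201 genes were called higher (6.54%) and 873 lower (4.75%), the shared genes numbered 527 (41.7% and 43.9%) and 338 (40.7% and 38.7%). In the extraembryonic endoderm list 23 of 23 genes tested in the mesoderm series were called higher (3.85% of all genes), with a median of 3.90, and in the definitive list 9 of 19 were higher and 2 lower (3.13% of all genes), with a median of 1.16. Sox17 had 0.196 and 1.30 CPM in mesoderm series WT and 21.3 and 16.6 CPM in Mtf2 null libraries (log2 fold change 4.72), and Cubn had 17.0 and 16.9 CPM and 713 and 858 CPM (5.53).

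In a fit of both series the Mtf2 null difference was larger toward endoderm for 178 genes (0.908%) and smaller for 44 (0.224%), together 1.13%. In the extraembryonic list 6 differences were larger and 1 smaller, and in the definitive list those of Hnf4a (3.12 ± 0.53, edgeR adjusted p = 1.06e-04) and Kit (1.88 ± 0.33) were larger. Pga5 had 1.96 and 1.63 CPM in mesoderm series WT and 7.36 and 9.27 CPM in Mtf2 null libraries, and its difference was larger toward endoderm by 5.48 ± 0.35. Lrrc15 (5.36 ± 0.51), Capn6 (4.30 ± 0.81), Dgkk (3.48 ± 0.49), Dppa3 (3.38 ± 0.42), and Aqp3 (3.35 ± 0.54) followed. Kirrel2 (-4.16 ± 0.55), Apob (-2.91 ± 0.38), Chst15 (-2.85 ± 0.35), Mmp25 (-2.36 ± 0.32), and Myrf (-2.28 ± 0.20) were smaller or of opposite sign. Apob, the apolipoprotein B gene, rose in both series, from 4.42 and 3.96 CPM to 12.7 and 9.77 CPM toward endoderm and from 1.24 and 1.71 CPM to 30.1 and 28.9 CPM toward mesoderm. The number of such genes fell to 36 when only the 8 libraries of this contrast were fitted, to 134 without Mtf2 null replicate 1, and to 137 without WT replicate 2 of the endoderm series.

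Against the libraries labelled Jarid2 null at 48 h, a comparison that shares the Mtf2 null libraries with that against WT, 1165 genes were higher in Mtf2 null (6.05%) and 784 lower (4.07%), together 10.1%. The endoderm lists gave 11 higher and 2 lower of 19, and 22 higher and 0 lower of 24. In the comparison of these libraries with WT neither list had a called gene. In that group Sox17 had 0.207 and 0.523 CPM, Gata6 had 0.827 and 0.784 CPM, and Cubn had 9.17 and 8.82 CPM. Their levels lay near those of WT and far below those of Mtf2 null cells.

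Some of the largest differences concerned genes and gene copies that were apart at every time and in both series, and these are given because the lines may differ in origin. Hprt, looked up after its value was seen, was at 0.26 and 0.471 CPM in WT, 56.0 and 62.1 CPM in Mtf2 null libraries, and 0.207 and 0.131 CPM under the Jarid2 null label. Among tested pseudogenes 186 of 1100 fell (16.9%) and 16 rose (1.45%), against 3.51% and 8.05% of 14624 protein-coding genes. Of the 186, 145 were also called lower before differentiation and 109 both there and in the 2 mesoderm series comparisons. Of the 12 genes with the largest fall among those with at least 5 CPM, 8 were pseudogenes, and all 12 were also called lower before differentiation. Ftl1, the ferritin light chain gene, had 147 and 137 CPM in WT and 3610 and 3130 CPM in Mtf2 null libraries, while its copy Ftl1-ps1 had 1630 and 1580 CPM and 42.9 and 39.0 CPM. The sum of both copies differed by 0.96 on the log2 scale. For Rpl3 with Rpl3-ps1 and Eno1 with Eno1b the sums differed by -0.28 and -0.48. Counts of such near-identical copies are uncertain, since reads can be assigned to either.

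The imprinted list gave 8 genes higher and 5 lower of 30 tested, with 5 higher without WT replicate 2, and 6 higher and 2 lower among protein-coding genes alone. The maternally expressed noncoding RNAs of the Dlk1-Dio3 locus fell furthest. Meg3 was at 306 and 277 CPM in WT and 0.449 and 0.349 CPM in Mtf2 null libraries, Rian at 771 and 817 CPM and 2.17 and 1.95 CPM, and Mirg at 117 and 106 CPM and 0.299 and 0 CPM. All were also called lower before differentiation and in the mesoderm series. The imprinted growth regulator Peg3 rose from 85.9 and 88.1 CPM to 494 and 532 CPM (2.56 ± 0.13). Lars2, with 2790 and 1940 CPM in WT, 205 and 169 CPM in Mtf2 null, and 77.8 and 51.9 CPM under the Jarid2 null label, and the mitochondrial ribosomal RNA mt-Rnr2 (309 and 292 CPM, 15.5 and 20.5 CPM, 6.34 and 4.83 CPM) were higher in WT than in both other groups, and mt-Rnr2 was at 13.3 and 5.54 CPM in mesoderm series WT at 48 h. Of 16 tested mitochondrially encoded genes 3 fell and 0 rose, but 0 fell without Mtf2 null replicate 1. By chromosome, the median log2 fold change was -0.27 on chromosome 8 and -0.28 on chromosome 14, and -0.31 and -0.26 before differentiation, while the medians of the libraries labelled Jarid2 null against WT were 0.10 and -0.03. The part of these features in the other results was not tested.

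**Figure D5:**
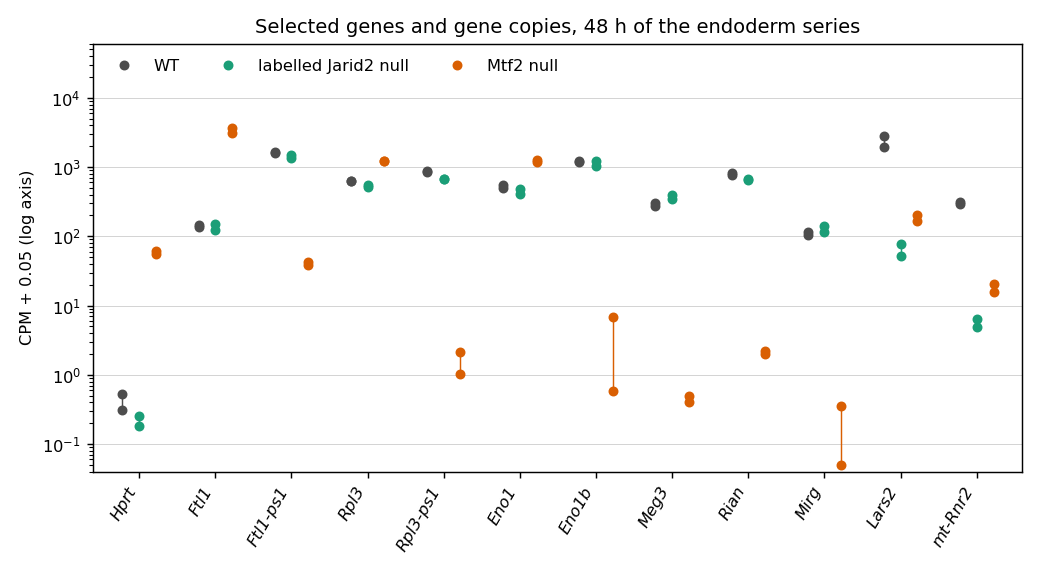
Levels of 12 genes and gene copies at 48 h of the endoderm series. Each point is 1 library (CPM + 0.05, log axis), grey for WT, green for libraries labelled Jarid2 null, orange for Mtf2 null, and lines join the 2 libraries of a group. Hprt and Ftl1 are higher and Ftl1-ps1, Rpl3-ps1, Eno1b, Meg3, Rian, and Mirg lower in Mtf2 null than in both other groups, while Lars2 and mt-Rnr2 are higher in WT than in both other groups.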

How the data were processed

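RNA was sequenced from WT, Mtf2 null, and Jarid2 null cells of the endoderm and mesoderm series (24 libraries each). The deposited values are estimated counts per gene, produced by the authors using Salmon (73.1% of values whole in the endoderm table). The submitters' processing notes also name CASAVA, Bowtie2, HTSeq, DESeq2, GRCm38, and mm10. The labels name a Kapa Hyper-prep kit and the study's methods ribosomal RNA depletion. From the methods it is unclear whether 48 h is the total time, and the header names the Jarid2 null 48 h columns by another time, so labels were used. The 2 tables held 54393 and 53697 genes, of which 53668 were shared, and coordinates are on GRCm38.

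Counts were rounded, filtered (filterByExpr, minimum count 10, minimum total 15), and fitted with TMM scaling and the quasi-likelihood test of edgeR 4.0.16 (R 4.3.3) over all 24 endoderm libraries, or over both tables for the comparison with mesoderm. Each standard error is the size of the log2 fold change over the square root of the F statistic, and p-values were adjusted by the Benjamini-Hochberg method over all genes tested. Calls used the study's thresholds, adjusted p under 0.001 and log2 fold change above 1. Ratios for genes with 1 to 3 WT counts have 95% counting intervals, and a floor of 3 counts over both libraries was used at 0, which cover counting error only. DESeq2 1.42.0 and limma 3.58.1 were alternatives. Simulated data were used to test the edgeR calls of Mtf2 null against WT and against the libraries labelled Jarid2 null at 48 h. The calls for the change from undifferentiated cells and for the contrast with mesoderm were tested likewise, and the other statistics were not.

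Members and lists were chosen with earlier results of these data known. Named genes were Mtf2, Jarid2, and Eed, members of the endoderm, PRC2, Nodal, GATA, and primitive streak lists, up to 5 called genes a direction (1 CPM or more) of other lists, 8 genes of the study, the 12 largest non-overlapping changes a direction (5 CPM or more), 6 a direction in the other comparisons, and the 5 most abundant a direction. Beyond the rule, these were picked once their values had been seen: Hprt, Rpl3, Eno1, Cubn, Dab2, Sox7, Apoe, Soat2, Afp, Apoa1, Apoa4, Slc39a5, Pou5f1, Nanog, Cdx2, Elf5, Kdr, and Tal1. Cited1, which is only plotted, was picked in the same way. A few genes that the rule names are not reported here. The histone list was corrected after the files were seen.

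The labels give the duplicates of each genotype and time the same numbers without marking a shared batch. Same-numbered Mtf2 null and WT libraries deviated together at 48 h (r = 0.217), with fewer than 3 pairs, so numbers were not used to pair samples.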

Additional observations from a re-analysis of the deposited data

Results flagged for a closer look

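These results were marked because the Mtf2 null difference itself was tested to differ between 2 settings. From undifferentiated cells to 48 h of the endoderm series, the log2 difference moved up for Foxf2 (8.5), Cdh5 (7.98), Cdh6 (6.45), Efnb1 (6.27), Nt5e (6.13), Hnf4a (6.03), Kit (4.19), Gata6 (2.62), Zfpm1 (2.15), Hhex (2.10), Gata4 (1.71), Pmepa1 (1.68), Smad3 (1.63), Furin (1.34), and Mtf2 (1.08). It moved down for Ccdc194 (-5.08), Tmem154 (-4.80), Fut1 (-4.75), Fst (-4.18), Adgrd1 (-4.17), Kctd16 (-4.15), Enpp2 (-3.85), Otx2 (-2.01), Acvr2a (-1.45), Foxh1 (-1.36), Epcam (-1.22), and Prdm1 (-1.15). Fst, an inhibitor of Activin, had 0.379 and 0.187 CPM in undifferentiated WT and 7.28 and 4.46 CPM in undifferentiated Mtf2 null libraries, and at 48 h 6.93 and 8.01 CPM against 6.66 and 9.84 CPM.

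Between the endoderm and mesoderm series at 48 h, the log2 difference was larger toward endoderm for Pga5 (5.48), Lrrc15 (5.36), Capn6 (4.30), Dgkk (3.48), Dppa3 (3.38), Aqp3 (3.35), Hnf4a (3.12), Kit (1.88), and Furin (1.68). It was smaller or of opposite sign for Kirrel2 (-4.16), Apob (-2.91), Chst15 (-2.85), Mmp25 (-2.36), Myrf (-2.28), and Pou3f1 (-1.78). Lrrc15 had 0.173 and 0.377 CPM in WT and 11.7 and 9.84 CPM in Mtf2 null toward endoderm, and 17.3 and 12.7 CPM against 13.1 and 14.7 CPM toward mesoderm. The causes were not tested.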

How the results depend on the processing

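At 48 h, 2096 genes were called between Mtf2 null and WT, 1101 for the change from undifferentiated cells, 222 for endoderm against mesoderm, and 1949 against the libraries labelled Jarid2 null. With a log2 limit of 2 these were 966, 361, 81, and 957. With adjusted p under 0.05 the change from undifferentiated cells and the contrast with mesoderm gave 2096 and 547. The contrast with mesoderm gave 420 with no filter on low counts. When only the libraries of each contrast were fitted, which leaves fewer samples, the counts were 1565, 802, 36, and 1923. Leaving out 1 library each gave 1638 to 1991, 768 to 1258, 134 to 226, and 1550 to 1652, the contrast with mesoderm giving 134 without Mtf2 null replicate 1 and 137 without WT replicate 2 of the endoderm series. With DESeq2 the counts were 1871, 1086, 258, and 1743. Upper-quartile scaling moved the median of all genes to -0.14 and the share of calls that were higher from 60.4% to 52.0%. For the change from undifferentiated cells that share, 51.9%, was 61.8% with the log2 limit of 2, and 41.7% or 59.3% without undifferentiated WT replicate 1 or 2. With the replicate block the counts were 2112, 1144, 228, and 1949, and the block changed no list count given for the endoderm lists. Protein-coding genes alone gave 1738, and leaving out the libraries labelled Jarid2 null gave 1987, both chosen after seeing the data. Over the named genes 4261 values kept their side of the threshold, 165 lost the call, and 17 gained it. Of values called in either fit 0 reversed direction, and changes of direction in genes called in neither fit were not counted. Of 208 called genes, 155 lost the call in no alternative that tested them. The causes were not tested. Genes near 0 in WT rest on few counts, which widens their intervals.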
